A study of Homo sapiens with 3 samples.

Results

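The cells described here are OVCAR3 cells in which no transcript of 5 genes of the late cell cycle was counted: MKI67, TOP2A, CCNB1, CENPF and CDK1. The cells were chosen by their own counts: a cell entered the set when it held 15000 or more UMIs (unique molecular identifiers, each standing for 1 captured RNA molecule) and 0 UMIs of every one of the 5 genes. In all, 400 of 25985 kept cells met this rule, with 140 cells in the DMSO library, 145 in the RAC1i library and 115 in the Combo library. They were compared with the 16058 cells of the same libraries and depth limit that held UMIs of 2 or more of the 5 genes, here called comparison cells (4925 under DMSO, 5961 under RAC1i and 5172 under Combo). The remaining 1295 cells of that depth held UMIs of exactly 1 of the genes (358, 536 and 401 cells).

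OVCAR3 is an established cell line from a high-grade serous ovarian carcinoma. Cultures were held for 48 h with DMSO, the solvent of both drugs, with 50 μM of the RAC1 inhibitor NSC23766 (RAC1i), or with 50 μM NSC23766 together with 5 μM of the EZH2 inhibitor GSK126 (Combo). Each condition is 1 droplet 3′ RNA library of 1 culture of this line, so no difference between conditions has a replicate check, and intervals given below are 95% exact intervals that cover counting error only. The kept cells held a median of 26750 UMIs under DMSO, 20989 under RAC1i and 24953 under Combo, and 15 to 23 kept barcodes were shared between any pair of libraries. Of the cells without the 5 transcripts, 1 in DMSO and 2 in RAC1i carried a barcode also kept in another library.

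A dividing cell passes from G1 into S phase, where DNA is copied, and through G2 into mitosis. Genes for replication are switched on by E2F factors near the start of S phase, and genes for mitosis are switched on later by the MuvB complex with B-MYB and FOXM1. In cells that rest in G1 or leave the cycle, the RB family and the DREAM complex hold both groups down, and CDK inhibitors block the kinases that would release them. Of the 5 genes of the rule, MKI67 encodes the Ki-67 protein that coats mitotic chromosomes, TOP2A the topoisomerase that untangles DNA, CENPF a kinetochore protein, CCNB1 the mitotic cyclin B1 and CDK1 its kinase. Cell cycle genes homology regions (CHR) bind MuvB, CCAAT boxes bind NF-Y, and E2F sites bind E2F factors.

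The start regions of 3 of these genes are shown because the rule rests on them and because the letters searched for these elements stand in them in different numbers. Each run covers 250 bases before and 50 after the start in RefSeq on GRCh38.p14, and capitals mark CHR letters (TTTGAA or TTCGAA) and CCAAT boxes (CCAAT) on either strand. MKI67 lies at chr10:128126374-128126673 on the minus strand, CDK1 at chr10:60778228-60778527 and CCNB1 at chr5:69166900-69167199, both on the plus strand. CDK1 had 2 entries, of which the one with more matches is shown.
MKI67: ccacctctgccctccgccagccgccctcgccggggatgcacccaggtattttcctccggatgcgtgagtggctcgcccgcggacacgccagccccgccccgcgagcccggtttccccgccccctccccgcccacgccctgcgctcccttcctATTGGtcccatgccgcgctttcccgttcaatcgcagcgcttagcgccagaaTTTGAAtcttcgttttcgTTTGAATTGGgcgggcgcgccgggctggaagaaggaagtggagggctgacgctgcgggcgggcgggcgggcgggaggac
CDK1: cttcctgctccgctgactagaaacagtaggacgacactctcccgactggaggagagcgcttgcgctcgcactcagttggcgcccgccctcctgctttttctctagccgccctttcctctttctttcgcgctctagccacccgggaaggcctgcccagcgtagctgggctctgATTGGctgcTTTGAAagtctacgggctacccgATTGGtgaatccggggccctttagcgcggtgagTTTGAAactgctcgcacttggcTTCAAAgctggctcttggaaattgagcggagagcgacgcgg
CCNB1: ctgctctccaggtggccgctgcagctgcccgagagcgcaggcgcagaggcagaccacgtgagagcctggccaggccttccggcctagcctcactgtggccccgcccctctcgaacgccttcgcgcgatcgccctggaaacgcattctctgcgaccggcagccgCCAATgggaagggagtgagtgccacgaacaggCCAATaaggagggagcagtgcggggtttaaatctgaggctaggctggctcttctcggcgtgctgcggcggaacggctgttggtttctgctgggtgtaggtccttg

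CHR letters stood in the MKI67 run 2 times and in the CDK1 run 3 times, and the CCNB1 run held neither of the 2 spellings. Other spellings of the CHR were not searched, so this does not show that CCNB1 lacks one. All 3 runs held 2 CCAAT boxes, and in MKI67 the second CHR and a CCAAT box on the other strand shared a letter. Over the 5 genes, 4 start regions held CHR letters, 5 a CCAAT box and 1, that of CDK1, an E2F site (TTTCCCGC, TTTCGCGC, TTTGCCGC or TTTGGCGC). Among the 41 of 50 other G2/M genes with an entry, 75.6% held CHR letters, against 12.1% of the 33 S phase genes with one and 19.5% of all 27305 genes with one. E2F letters stood in 4.88% of the G2/M genes, 57.6% of the S phase genes and 3.99% of all genes. CCAAT boxes stood in 68.3% of the G2/M genes, 72.7% of the S phase genes and 39.7% of all genes. Among the 5437 genes with an entry and 10 CPM in all 3 libraries, 15.6% held CHR letters, 7.67% E2F letters and 44.05% a CCAAT box. A match describes the letters only.

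The absence of the 5 transcripts depended on depth. The share of cells without them among cells of 15000 or more UMIs was 2.58% (2.18 to 3.04) under DMSO, 2.18% (1.85 to 2.56) under RAC1i and 2.02% (1.67 to 2.42) under Combo. After thinning of every cell to 15000 UMIs the shares were 6.12%, 6.34% and 5.70%, more than 2 times the unthinned values in every library. In cells of 15000 to 20000 UMIs the share was 5.75% under DMSO, 5.69% under RAC1i and 7.0% under Combo, and from 45000 UMIs it was 0.306%, 0.108% and 0.184%. Between 20000 and 30000 UMIs the DMSO share of 4.60% lay above those of RAC1i (2.25%) and Combo (2.66%).

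On the log2 scale the share in RAC1i relative to DMSO was −0.24 (−0.59 to 0.10), that in Combo relative to DMSO −0.35 (−0.72 to 0.01) and that in Combo relative to RAC1i −0.11 (−0.48 to 0.25). All 3 intervals held 0. After thinning the values were 0.05, −0.10 and −0.15. With shares weighted to the depths of all 3 libraries together, they were −0.57, −0.36 and 0.21, from shares of 2.80% under DMSO, 1.88% under RAC1i and 2.17% under Combo. The first pair shares the DMSO cells, and with a limit of 20000 UMIs it moved to −0.76 and −0.84, while with a limit of 10000 UMIs it turned to 0.25 and 0.12. Just inside the limit, at 15000 to 16000 UMIs, 3 of 82 cells under DMSO, 22 of 259 under RAC1i and 16 of 164 under Combo lacked the 5 transcripts. Just outside, at 14000 to 15000 UMIs, they were 6 of 84, 18 of 276 and 17 of 156.

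**Figure D1:**
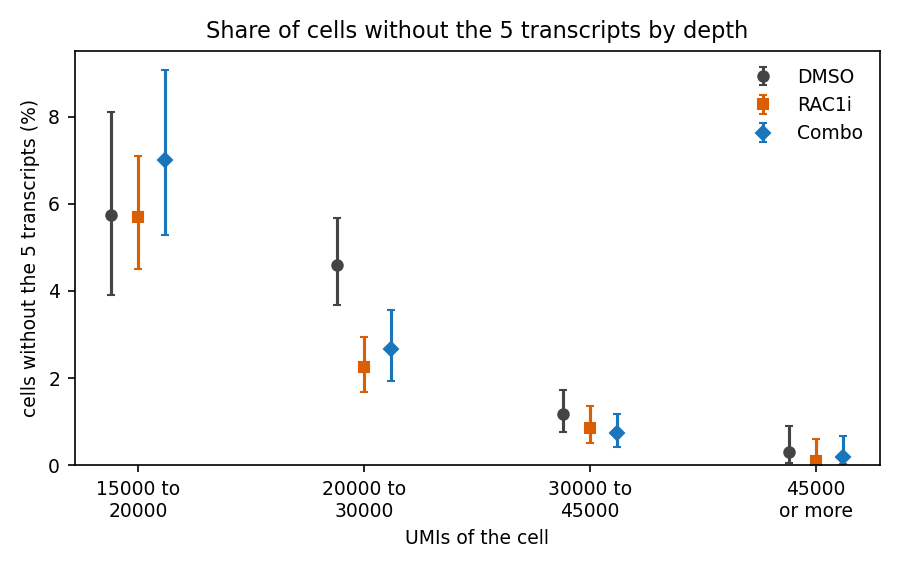
Share of cells without the 5 transcripts (percent) by UMIs of the cell, for the DMSO, RAC1i and Combo libraries, with 95% Clopper-Pearson intervals for counting error as bars. The shares fall from 5.75%, 5.69% and 7.0% at 15000 to 20000 UMIs to 0.306%, 0.108% and 0.184% from 45000 UMIs.

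Cells without the 5 transcripts were shallower than comparison cells. They held a median of 25402.5 UMIs in DMSO (15121 to 51836), 19624 in RAC1i (15097 to 51155) and 20761 in Combo (15139 to 58555), against 33215, 29741 and 33748.5 in comparison cells. Mitochondrial UMIs made up a median of 7.35% under DMSO, 1.20% under RAC1i and 1.55% under Combo, against 6.22%, 1.38% and 1.32%. The part of depth in what follows was not tested beyond the thinned values, the other depth limits and comparison cells weighted to the same depths. The libraries come from OVCAR3 cells only, with no other cell type to read free RNA from. The level that free RNA gives was thus not measured.

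The rule's genes themselves were at 0 by choice, so this 0 sets no upper limit on their level. At the summed depth the floor of 3 UMIs equals 0.837 CPM (UMIs of the gene scaled to a common total of UMIs) under DMSO, 0.957 under RAC1i and 1.15 under Combo. In comparison cells MKI67 stood at 197, 71.9 and 71.8 CPM in DMSO, RAC1i and Combo, CENPF at 294, 121 and 125, TOP2A at 137, 64.1 and 57.8, CCNB1 at 166, 112 and 106, and CDK1 at 119, 118 and 112. A comparison cell held a median of 4 UMIs of MKI67 under DMSO and 1 under RAC1i and under Combo. Comparison cells thus held less MKI67, CENPF, TOP2A and CCNB1 in the treated libraries than in DMSO, and CDK1 was at a like level in all 3. In cells with exactly 1 of the genes it was most often CENPF, in 41.1%, 37.7% and 43.4% of them.

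UMIs of other proliferation transcripts were counted in the set, and how much of them free RNA gives was not measured. Once the genes of the rule were taken out, 17 genes remained of those the study lists for its 2 cycling clusters, and no cell was at 0 of all 17, before or after thinning. No comparison cell was at 0 of all 17 either, and the 17 include TUBB and HIST1H1E, so this count does not separate the groups. Their median number with a UMI was 6 under DMSO, 8 under RAC1i and 7 under Combo, against 14, 12 and 12 in comparison cells. UMIs of the 50 G2/M genes that the rule did not use summed to 1983 CPM under DMSO, 2896 under RAC1i and 2584 under Combo, against 5620, 4864 and 4969. The list also holds genes close to comparison cells in DMSO, such as JPT1 (log2 ratio −0.40) and CTCF (−0.50). The sum is therefore not one of late cell cycle transcripts alone. The set is therefore named by its rule, as cells without the 5 transcripts.

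Within each library the contrast with comparison cells is the one the rule used, so the values that follow describe the set and no test was made of them. Genes that reached 10 CPM in 1 of both groups were counted when their CPM differed over 2-fold. In DMSO 17 of 8466 genes (0.201%) were higher and 374 (4.42%) lower in cells without the 5 transcripts. In RAC1i 15 of 7412 genes (0.202%) were higher and 119 (1.61%) lower, and in Combo 31 of 7490 (0.414%) and 171 (2.28%). The counts depended on the settings. With the rule applied again after thinning, to a larger set of 421 cells in RAC1i and 324 in Combo, they were 1 and 51 in RAC1i and 2 and 56 in Combo. With a limit of 20000 UMIs 77 genes were higher in Combo, and with TMM scaling 4 were higher in DMSO. The interval lay wholly past 2-fold for 3, 4 and 10 of the higher genes and for 259, 35 and 66 of the lower genes. In all 3 libraries 75 of 6687 genes (1.12%) were over 2-fold lower and 0 (0%) over 2-fold higher. Of the 75 genes 26 were G2/M genes of the list and 9 were S phase genes, and 55.9% of the 59 with a start region held CHR letters. The median log2 ratio over all genes was −0.10 under DMSO and −0.12 under RAC1i and under Combo.

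G2/M genes were lower in cells without the 5 transcripts than in comparison cells in every library, and most so in DMSO. Of 48 such genes at 10 CPM in DMSO 44 were over 2-fold lower, with a median log2 ratio of −3.23. In RAC1i 27 of 45 were over 2-fold lower (median −1.25), and in Combo 32 of 45 (median −1.60). None was over 2-fold higher in any library, beside 0.201%, 0.202% and 0.414% of all genes. The shares of all genes over 2-fold lower were 4.42% in DMSO, 1.61% in RAC1i and 2.28% in Combo. With a limit of 10000 or 20000 UMIs, thinning and the other settings tried, the medians ran from −3.41 to −2.69 under DMSO, −1.49 to −0.98 under RAC1i and −1.82 to −1.03 under Combo.

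UBE2C, which loads ubiquitin onto targets of the anaphase-promoting complex, stood at 10.6 CPM in the DMSO cells against 224 in comparison cells, a ratio of 0.0473 (0.0335 to 0.0649). In RAC1i it stood at 108 against 256 CPM (ratio 0.419) and in Combo at 88.6 against 261 (0.339). Comparison cells thus differed little between libraries for UBE2C, while the cells without the 5 transcripts held about 10 times as much in RAC1i as in DMSO (ratio 10.1, 7.24 to 14.6). TPX2, which targets AURKA to the spindle, stood at 21.8 against 173 CPM under DMSO, 30.6 against 115 under RAC1i and 29.0 against 105 under Combo. BIRC5, the survivin subunit of the chromosomal passenger complex, stood at 15.1 against 129, 95.4 against 230 and 77.1 against 244 CPM.

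CCNA2, the cyclin of S and G2 phase, was close to absent in the DMSO cells, with 3 UMIs in all, or 0.837 CPM against 55.7. In RAC1i it stood at 16.6 against 37.8 CPM and in Combo at 11.5 against 32.6. At 15000 UMIs per cell 1.43% of the DMSO cells held a CCNA2 UMI, 17.9% of those of RAC1i and 13.0% of those of Combo, against 45.6%, 37.2% and 32.6% of comparison cells. AURKA, a kinase of the spindle poles, did not share this spread. Its ratio to comparison cells was 0.206 under DMSO, 0.185 under RAC1i and 0.198 under Combo, with intervals that overlapped.

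Gene by gene, 42 of 44 G2/M genes lay further below comparison cells in DMSO than in RAC1i, all but AURKA and CTCF, with a median difference of 1.77 on the log2 scale. Against Combo they were 43 of 44, all but AURKA, with a median difference of 1.43. Over all genes at 10 CPM the DMSO ratio was the lower in 49.7% of 6774 genes for RAC1i and 53.2% of 6912 for Combo. RAC1i and Combo are set against the same DMSO cells here. The share of cells that the rule takes at a fixed 15000 UMIs differed little between libraries, while the levels of 4 of the 5 genes it reads, all but CDK1, were lower in treated comparison cells, and the part of that in the spread was not tested.

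**Figure D2:**
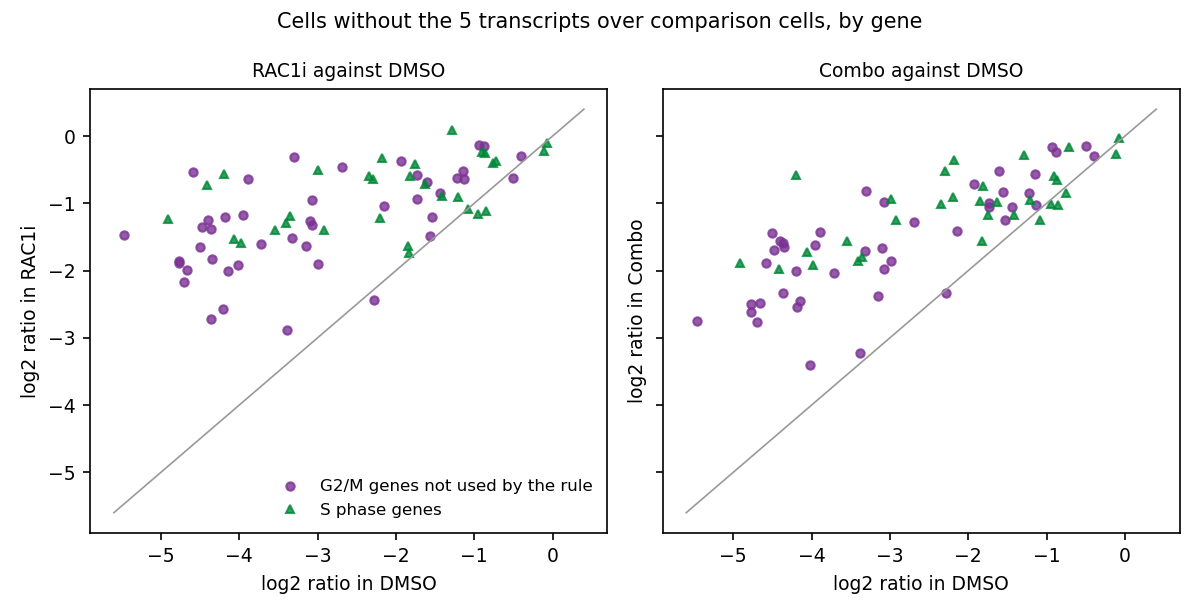
Log2 ratio of CPM in cells without the 5 transcripts over comparison cells, in DMSO (x axis) and in RAC1i or Combo (y axis), for G2/M genes not used by the rule (circles) and S phase genes (triangles), with the line of equal ratios. For RAC1i 42 of 44 G2/M genes and 26 of 31 S phase genes lie above the line, and for Combo 43 of 44 and 26 of 31.

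S phase genes followed with a smaller size. In DMSO 32 of 40 were over 2-fold lower with a median log2 ratio of −2.10, in RAC1i 13 of 31 (median −0.73) and in Combo 15 of 31 (median −0.98). Among all genes 4.42%, 1.61% and 2.28% were over 2-fold lower. TYMS, which makes thymidylate for DNA, stood at 14.8 against 151 CPM under DMSO, 33.2 against 75.7 under RAC1i and 22.9 against 79.9 under Combo. RRM2, the small subunit of ribonucleotide reductase, stood at 6.41 against 118 CPM, 58.7 against 86.4 and 40.9 against 61.1. PCNA, the clamp of DNA polymerase, had ratios of 0.278, 0.324 and 0.514. ESCO2, which acetylates cohesin in S phase, showed the widest spread of these, with 0.837 against 62.8 CPM under DMSO, 42.1 against 60.0 under RAC1i and 37.4 against 67.0 under Combo.

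Licensing genes load the MCM helicase on origins before S phase. In DMSO 11 of 14 were over 2-fold lower (median −1.88), in RAC1i 1 of 13 (median −0.50) and in Combo 4 of 13 (median −0.75). Beside these, 4.42%, 1.61% and 2.28% of all genes were over 2-fold lower. The list shares 6 of its 16 genes with the S phase list, and without these the medians over 8 genes were −1.80, −0.36 and −0.72. CDC6, a loader of the helicase, stood at 3.35 against 26.6 CPM under DMSO, 29.0 against 41.1 under RAC1i and 20.6 against 39.2 under Combo. MCM7, a helicase subunit, stood at 22.3 against 101 CPM, 92.5 against 116 and 92.0 against 118. ORC6, of the origin recognition complex, stood at 8.09 against 35.8, 53.6 against 65.4 and 44.7 against 79.5. All 3 genes thus held more CPM in the treated cells without the 5 transcripts than in the DMSO ones. ORC2 and ORC4 were the 2 of 12 licensing genes that did not lie further below comparison cells in DMSO than in RAC1i or Combo.

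Per cell, thinned to 15000 UMIs, the G2/M list summed to a median of 29 UMIs under DMSO, 41 under RAC1i and 38 under Combo, against 72, 63 and 64 in comparison cells. Of the DMSO cells 0 of 140 reached the comparison median of 72, with a limit taken at 2.14%, the share that 3 cells would give, and not from a Clopper-Pearson interval. In RAC1i 12 of 145 (8.28%) and in Combo 7 of 115 (6.09%) reached theirs. For the S phase list the medians were 10, 15 and 14 UMIs against 30, 21 and 22, and 2 cells in DMSO (1.43%), 19 in RAC1i (13.1%) and 14 in Combo (12.2%) reached the comparison median. From 0 to 5 rule genes with a UMI, the G2/M median in DMSO ran through 29, 30, 37, 49, 61 and 96 UMIs. In RAC1i it ran through 41, 47, 51, 56, 62 and 82, and in Combo through 38, 47, 51, 57, 64 and 80. The DMSO cells with 0 and with 1 of the genes were thus 1 UMI apart, and the first step was wider in RAC1i and Combo. Summed over cells, those with 1 gene held 2097 CPM of the list under DMSO, 3219 under RAC1i and 3157 under Combo.

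**Figure D3:**
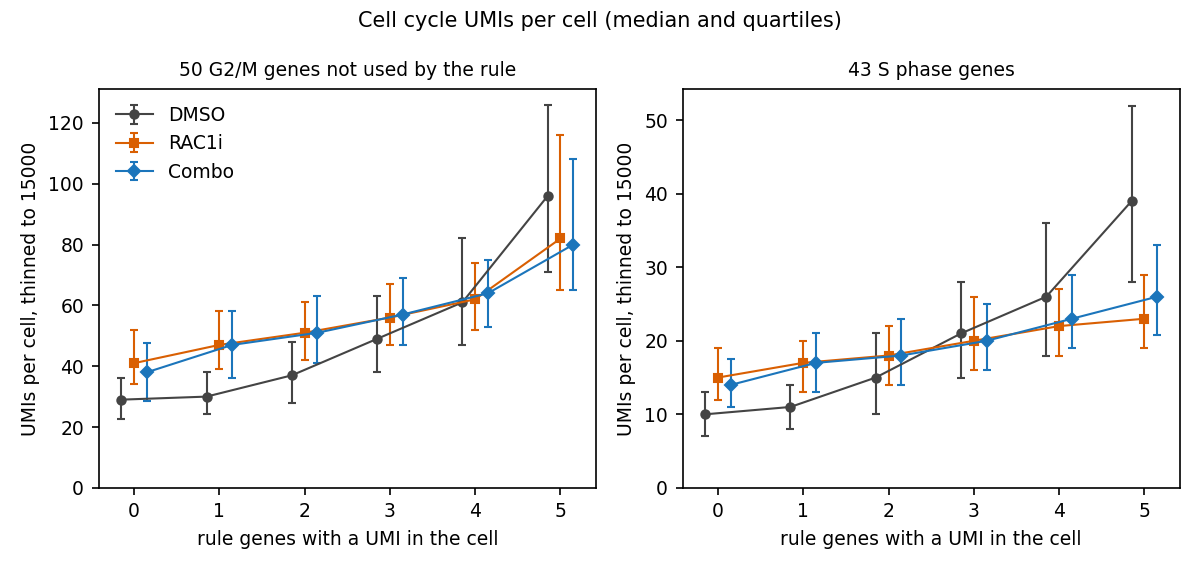
UMIs per cell, after thinning to 15000 UMIs, of the 50 G2/M genes not used by the rule (left) and the 43 S phase genes (right) by the number of rule genes with a UMI in the cell, shown as medians with quartiles as bars. DMSO spans 29 to 96 G2/M UMIs from 0 to 5 genes, RAC1i 41 to 82 and Combo 38 to 80.

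Histone genes did not move as 1 group. The list's median was −0.62 in DMSO (8 of 20 over 2-fold lower), −0.12 in RAC1i (1 higher and 2 lower of 17) and 0.06 in Combo (1 higher and 2 lower of 17), and the last pair changed sign with the settings tried. Over all genes, 4.42%, 1.61% and 2.28% were over 2-fold lower and 0.201%, 0.202% and 0.414% higher in DMSO, RAC1i and Combo. HIST1H4C, a histone H4 gene of the kind used in S phase, stood at 28.7 against 324 CPM under DMSO, 108 against 437 under RAC1i and 98.9 against 461 under Combo. HIST1H4H, another H4 gene, was higher instead, with 31.2 against 19.6 CPM, 129 against 55.3 and 107 against 47.2, ratios of 1.59, 2.33 and 2.26. HIST1H1C, which encodes the linker histone H1.2, stood at 304 against 211, 231 against 134 and 270 against 141 CPM, ratios of 1.44 (1.35 to 1.53), 1.72 (1.59 to 1.85) and 1.92 (1.78 to 2.07). H4 genes are near copies of each other, S phase histone transcripts mostly lack the poly(A) tail that this assay captures, and the levels of single histone genes are uncertain for both reasons.

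The list of G1 cyclins and CDKs, which also holds CCNA2, had medians of −0.49 under DMSO, −0.41 under RAC1i and −0.34 under Combo, with 3, 1 and 2 of 10 over 2-fold lower. Without CCNA2, left out after the values were seen, the medians were −0.29, −0.28 and −0.22, with 2, 0 and 1 of 9 over 2-fold lower. The shares of all genes over 2-fold lower were 4.42%, 1.61% and 2.28% in the same order. CCND1, cyclin D1, stood at 163 against 189 CPM under DMSO, 530 against 527 under RAC1i and 439 against 412 under Combo. CCNE1, the E2F target cyclin E1, stood at 49.4 against 91.3, 68.9 against 80.3 and 85.5 against 89.7. CCND1 thus differed more between libraries than between both groups of cells within a library.

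The CDK inhibitor medians were −0.11 over 5 genes under DMSO, 0.24 over 4 under RAC1i and 0.15 over 6 under Combo, which are different gene sets. None of these genes was over 2-fold higher, but of all genes only 0.201%, 0.202% and 0.414% were. CDKN2A, the p16 and p14ARF gene, stood at 604 against 598 CPM (ratio 1.01, 0.967 to 1.05), 704 against 574 (1.23, 1.17 to 1.28) and 620 against 567 (1.09, 1.04 to 1.15), where the Combo ratio turned below 1 with a limit of 20000 UMIs and against comparison cells weighted to the same depths. CDKN1B, the p27 gene, had ratios of 0.912 (0.769 to 1.08), 0.848 (0.663 to 1.07) and 1.09 (0.866 to 1.36), all of whose intervals held 1. CDKN1A, the p21 gene, was listed at 0 UMIs in the DMSO cells and stood at 4.47 against 5.82 CPM in RAC1i and 11.1 against 9.79 in Combo. CDKN1C, the p57 gene, stood at 49.4 against 34.2 CPM under DMSO, 6.06 against 8.94 under RAC1i and 15.7 against 11.1 under Combo.

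Members of the RB, E2F and MuvB machinery had medians of −0.62 in DMSO (6 of 17 over 2-fold lower), −0.17 in RAC1i (2 of 14) and −0.56 in Combo (3 of 14). Among all genes 4.42%, 1.61% and 2.28% were over 2-fold lower. E2F1, an activator of S phase genes, stood at 7.81 against 56.2 CPM under DMSO, 7.34 against 15.5 under RAC1i and 11.1 against 18.2 under Combo. MYBL2, which encodes B-MYB, stood at 54.7 against 178, 77.5 against 151 and 55.4 against 144. FOXM1, the G2/M activator, stood at 8.37 against 42.6, 16.3 against 34.2 and 7.64 against 28.6. All of these activators were lower than in comparison cells in every library. Among the drug targets, EZH2 stood at 8.92 against 34.3 CPM under DMSO, 7.02 against 13.2 under RAC1i and 9.93 against 15.8 under Combo, and RAC1 had ratios of 0.886, 0.888 and 0.851.

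Lists for states outside the cycle were near 0. Quiescence-associated genes had medians of 0.17, 0.18 and 0.07 in DMSO, RAC1i and Combo, with 1 of 12 over 2-fold higher in Combo and none in the others. Of all genes 0.201%, 0.202% and 0.414% were over 2-fold higher in the same order. Targets of p53 and DNA damage had −0.06, −0.18 and −0.02, and senescence-associated genes −0.19, 0.24 and 0.15. The senescence list shares 8 genes with the chemokine, G2/M and CDK inhibitor lists, among them CXCL8, HMGB2 and CDKN2A, and with the top cell of each gene left out its medians were −0.32, −0.09 and −0.22. Every one of these lists changed sign under a setting tried in at least 1 library, and only quiescence in RAC1i and senescence in DMSO kept theirs. TP53INP1, a p53 target that promotes arrest, stood at 82.8 against 59.9 CPM under DMSO, 3.51 against 3.61 under RAC1i and 6.87 against 3.38 under Combo. Tubulins, which also build the spindle, were lower, with medians of −0.74, −0.48 and −0.56.

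**Figure D4:**
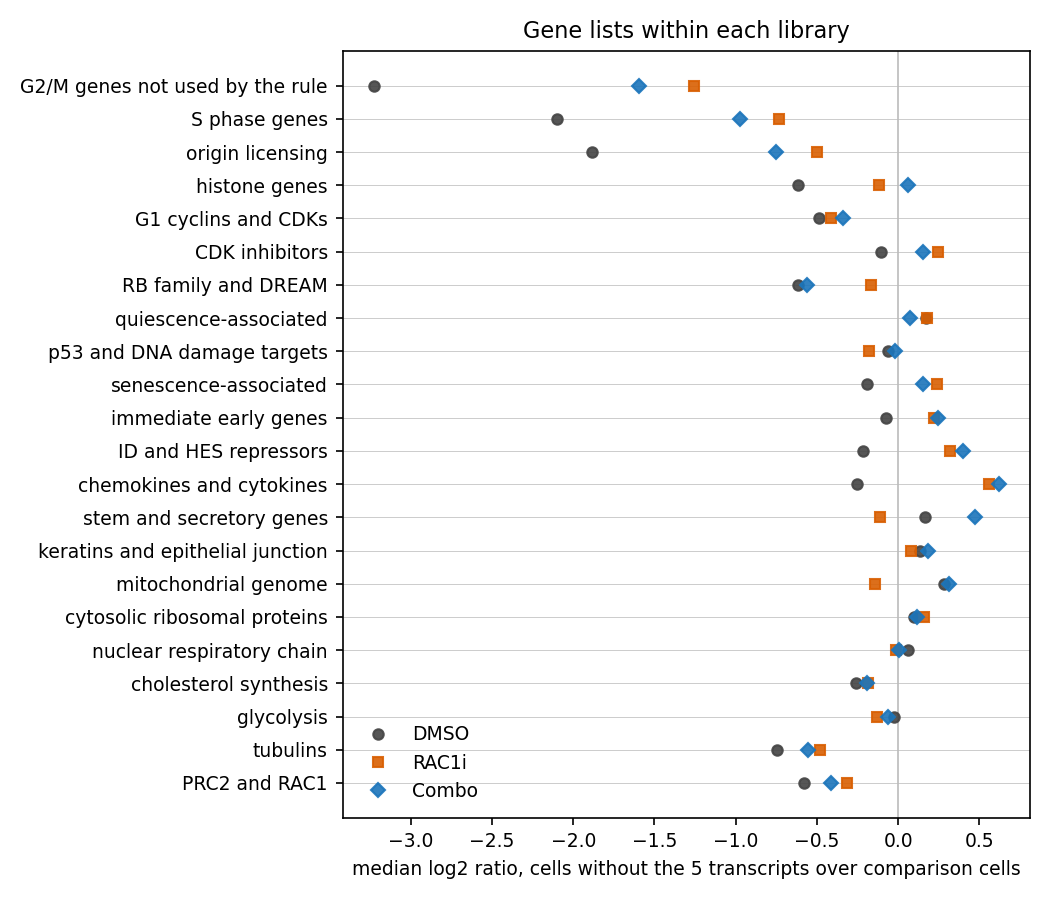
Median log2 ratio of CPM, cells without the 5 transcripts over comparison cells, for each gene list with 4 or more genes at 10 CPM, in DMSO, RAC1i and Combo, with the lists taken from the study's clusters left out. G2/M genes (−3.23, −1.25 and −1.60) and S phase genes (−2.10, −0.73 and −0.98) lie furthest below 0 among the lists drawn.

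Beside the histone genes above, 4 further genes that were higher in all 3 libraries are given here. In all, 645 of 6687 genes (9.65%) were higher at any size in every library and 2982 (44.6%) were lower. S100A6, a calcium-binding protein, stood at 4539 against 3256 CPM under DMSO, 4138 against 3408 under RAC1i and 5019 against 3693 under Combo, ratios of 1.39, 1.21 and 1.36. ID2, which blocks basic helix-loop-helix factors, had ratios of 1.30, 1.33 and 1.63. ANXA1, a phospholipid-binding annexin, had 1.32, 1.22 and 1.40. IFITM3, an interferon-induced membrane protein with a near copy in IFITM2, had 1.37, 1.41 and 1.32. None of these 4 genes turned below comparison cells under the settings tried.

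Chemokine and cytokine genes had medians of 0.56 in RAC1i and 0.62 in Combo over 10 genes, and −0.26 in DMSO, where 4 of the genes reached 10 CPM. Some reached it only in the cells without the 5 transcripts, which favours a higher median. Among them were CCL20 (18.5 against 7.71 CPM in RAC1i and 17.6 against 4.57 in Combo) and CXCL2 in Combo (33.6 against 9.81). NFKBIA, the inhibitor that NF-κB induces, stood at 95.6 against 108 CPM under DMSO, 1120 against 856 under RAC1i and 1105 against 812 under Combo. CXCL1, a neutrophil chemokine, stood at 22.9 against 46.7, 621 against 421 and 381 against 239. Single cells decided part of this. CXCL8 stood at 86.2 against 32.7 CPM in RAC1i and 38.2 against 13.7 in Combo, but 75.2% and 74.0% of its UMIs lay in 1 cell, and without that cell the ratios were 0.66 (0.51 to 0.84) and 0.73 (0.48 to 1.08). In Combo the top cell of each gene held 63.6% of the CXCL2 UMIs, 58.7% of those of CCL20 and 43.8% of those of CXCL3, and without that cell the ratios were 1.26, 1.61 and 1.34. With the top cell of each gene left out, no chemokine or cytokine gene was over 2-fold higher in any library, and the medians were −0.31, 0.35 and 0.36. For CXCL1 the ratios without its top cell were 0.41, 1.32 and 1.11, and the DMSO ratio turned above 1 after thinning. Leaving out the top cell was chosen after the values were seen, and the difference between the libraries was not tested. That cell was left out of the cells without the 5 transcripts only, while comparison cells stayed whole. The step thus favours lower ratios, most for genes held by few cells, and does not show that a gene was at or below comparison cells.

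ID and HES genes had medians of −0.22 under DMSO, 0.32 under RAC1i and 0.40 under Combo, and the DMSO value ran from −0.40 to 0.10 over the settings tried. HES1, a Notch target, stood at 25.1 against 30.2 CPM, 326 against 202 and 355 against 213. GADD45B, a stress-induced growth arrest gene, stood at 15.1 against 13.2, 850 against 530 and 822 against 492. The ratios of GADD45B were 1.14 (0.855 to 1.5), 1.60 (1.54 to 1.67) and 1.67 (1.60 to 1.74), so only the treated libraries had intervals above 1.

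**Figure D5:**
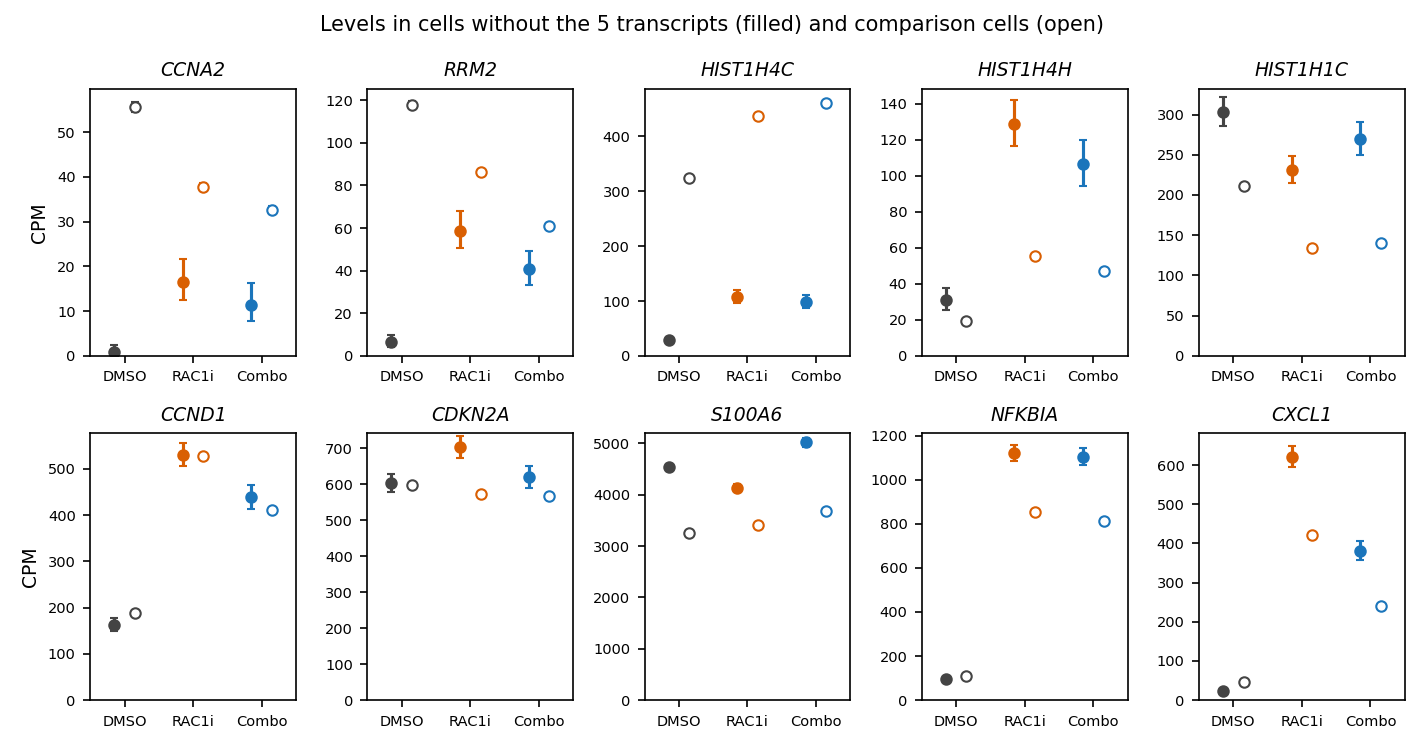
CPM of 10 genes in cells without the 5 transcripts (filled) and comparison cells (open) of the DMSO, RAC1i and Combo libraries, with 95% exact Poisson intervals for counting error as bars. CCNA2, RRM2 and HIST1H4C lie lower in every library, HIST1H4H, HIST1H1C and S100A6 higher, and NFKBIA and CXCL1 lie above comparison cells in RAC1i and Combo and not in DMSO.

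Metabolic lists moved little. The 77 cytosolic ribosomal protein genes had medians of 0.10, 0.16 and 0.12, with 71, 73 and 69 of them higher, but −0.08 in DMSO with TMM scaling. Transcripts of the mitochondrial genome had medians of 0.28 in DMSO (12 of 13 higher), −0.14 in RAC1i (10 of 12 lower) and 0.31 in Combo (13 of 13 higher), and the RAC1i value was 0.03 with a limit of 10000 UMIs. It lay at about the RAC1i median over all genes, which was −0.12. Cholesterol synthesis had −0.26, −0.18 and −0.19, glycolysis −0.02, −0.13 and −0.06, and nuclear respiratory chain genes 0.06, −0.01 and 0.00. The last group and glycolysis changed sign under a setting tried in all 3 libraries.

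Between libraries, the cells without the 5 transcripts were compared with each other, with the comparison cells beside them. RAC1i over DMSO, 1469 of 8626 genes (17%) were over 2-fold higher and 2397 (27.8%) over 2-fold lower in these cells, against 1104 of 8796 (12.6%) and 2170 (24.7%) in comparison cells. Combo over DMSO, the counts were 1165 of 8503 (13.7%) and 1995 (23.5%), against 1001 of 8758 (11.4%) and 2030 (23.2%). The split depended on scaling: 38.0% of the RAC1i calls and 36.9% of the Combo calls were higher by CPM, 62.1% and 65.1% by TMM, and 51.3% and 48.9% by DESeq2 size factors. The median over all genes for RAC1i was −0.20 by CPM, 0.30 by TMM and 0.08 by size factors. Both comparisons share the DMSO cells.

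The genes furthest above the DMSO cells under treatment were above them in comparison cells as well. KLF10, a TGF-β-induced repressor, went from 4.46 CPM in the DMSO cells to 601 in RAC1i, a ratio of 135 (82.8 to 236), against 43.5 in comparison cells. MT2A, a metal-binding metallothionein, stood at 85.9 CPM in DMSO and 10986 in Combo, a ratio of 128 (114 to 144) against 60.1 in comparison cells. IL6, an inflammatory cytokine, stood at 2.23 CPM in DMSO and 187 in RAC1i, a ratio of 83.7 (42.2 to 195) against 47.2. ADM, adrenomedullin, had 1 UMI in the DMSO cells, 0.279 CPM, and stood at 153 CPM in RAC1i (ratio of the counts without the floor 548, 97.9 to 21695). All 4 were higher under treatment in both groups of cells, and the intervals of the groups stayed apart for KLF10, MT2A and ADM and overlapped for IL6.

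CDH6 and PAX8 were likewise lower in RAC1i than in DMSO in both groups of cells, and TMEM100 was lower in the cells without the 5 transcripts. CDH6, the kidney-type cadherin, stood at 642 CPM in the DMSO cells and 15.0 in RAC1i, a ratio of 0.0233 (0.0171 to 0.0311) against 0.0403 in comparison cells. TMEM100, a membrane protein, stood at 113 CPM in DMSO and 0.957 in RAC1i, the level of 3 UMIs. Its levels in comparison cells are not given here, so the difference is not shown to be particular to these cells. PAX8, the lineage factor of the fallopian tube secretory cell, stood at 405 CPM under DMSO, 51.1 under RAC1i and 85.1 under Combo, against 359, 57.0 and 48.2 in comparison cells. In Combo, PAX8 over 250 CPM was found in 11 of 115 cells (9.57%, 4.87 to 16.5) against 158 of 5172 comparison cells (3.05%), in RAC1i in 6 of 145 (4.14%) against 3.88%, and in DMSO in 80.0% against 71.9%, a limit chosen after the values were seen. In the other Combo cells PAX8 stood at 37.0 CPM without the 5 transcripts and 39.3 in comparison cells.

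The medians of cell cycle genes had opposite signs in both groups of cells under treatment. Both groups were set by the rule, and MKI67, CENPF, TOP2A and CCNB1, which it reads, were lower in treated comparison cells. The DMSO cells without the 5 transcripts were also deeper, with a median of 25402.5 UMIs against 19624 in RAC1i and 20761 in Combo. The part of these in the opposite signs was not tested. The median log2 ratio of G2/M genes in RAC1i over DMSO was 1.57 in cells without the 5 transcripts (20 over 2-fold higher and 2 lower of 35) and −0.59 over 49 genes in comparison cells. In Combo over DMSO it was 0.96 (14 higher and 2 lower of 28) and −0.60 over 49. These are different gene sets, since 14 of the 35 and 7 of the 28 genes reached 10 CPM in the treated cells without the 5 transcripts and not in the DMSO ones. Over the genes at 10 CPM in comparison cells, a choice made after the values were seen, the medians were 1.48 against −0.54 over 47 genes in RAC1i and 1.11 against −0.59 over 48 in Combo, where the 2 genes in RAC1i and 1 in Combo at the floor in both libraries were left out. S phase genes had 0.48 against −0.82 in RAC1i and 0.38 against −0.64 in Combo. At 10 CPM in each group of cells they were split gene by gene, with 15 higher and 11 lower of 26 in the RAC1i cells without the 5 transcripts (8 and 2 over 2-fold) and 16 higher and 9 lower of 25 in the Combo ones (4 and 1 over 2-fold). Of all genes 17% were over 2-fold higher in the RAC1i cells and 13.7% in the Combo ones. Over the 39 S phase genes at 10 CPM in comparison cells and above the floor, the medians were 0.78 against −0.80 in RAC1i (27 higher and 12 lower, 15 and 3 over 2-fold) and 0.58 against −0.63 in Combo (28 higher and 11 lower, 9 and 1 over 2-fold). Over the settings tried the G2/M medians of the cells without the 5 transcripts ran from 0.83 to 1.93 in RAC1i and from 0.52 to 1.43 in Combo, and none was below 0.

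ESCO2 was 50.4-fold higher (16.9 to 247) in RAC1i than in DMSO among cells without the 5 transcripts, with a ratio of 0.956 (0.931 to 0.982) in comparison cells. CCNA2 had 19.8 (6.42 to 99.3) against 0.678, RRM2 9.15 (5.92 to 14.8) against 0.733, and CEP55, a midbody protein that acts in the final separation of daughter cells, 8.96 (3.82 to 25.7) against 0.548. These 4 genes and CXCL8 had the largest differences of that direction between both groups of cells, among genes that reached 50 CPM, and CXCL8 reached it through 1 cell (21.6 CPM without that cell). In the other direction, EVA1B had a ratio of 0.120 against 0.294, UGDH 0.138 against 0.350 and FLG, filaggrin, 0.119 against 0.336, where 1 DMSO cell held 33.6% of the FLG UMIs and without it the DMSO level went from 185 to 124 CPM. Even so, CCNA2 in the RAC1i cells, at 16.6 CPM, stayed below the 37.8 CPM of comparison cells. What part the rule itself has in the differences between both groups was likewise not tested.

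Few genes set the Combo cells apart from the RAC1i cells. Combo over RAC1i, 112 of 7365 genes (1.52%) were over 2-fold higher and 94 (1.28%) over 2-fold lower, but the interval lay wholly past 2-fold for only 7 and 3. In the far larger sums of comparison cells 2 (0.027%) and 1 (0.0135%) of 7403 genes were past 2-fold. G2/M genes had a median of −0.31 in cells without the 5 transcripts, which was −0.03 after thinning, and 0.03 in comparison cells. MUC1, a membrane mucin, stood at 19.8 CPM in RAC1i and 54.2 in Combo, a ratio of 2.74 (2.02 to 3.76) against 0.876 in comparison cells. EMX2, a homeobox factor of the Müllerian duct, stood at 33.8 and 72.2 CPM, a ratio of 2.13 (1.67 to 2.73) against 0.995. In the Combo cells 1 cell held 25.4% of the MUC1 UMIs and 7.41% of the EMX2 UMIs. Outside the cells with PAX8 over 250 CPM, MUC1 stood at 17.5 CPM in RAC1i and 29.2 in Combo, and EMX2 at 31.2 and 61.0 CPM.

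Fibroblast, mesothelial, immune and endothelial markers were near 0, and ciliated cell markers were not. The 8 fibroblast and mesothelial markers summed to 9.48 CPM under DMSO, 4.15 under RAC1i and 9.54 under Combo, against 11.3, 8.18 and 7.84 in comparison cells, with 4, 6 and 4 of them at 0. The 9 immune markers summed to 3.90, 7.98 and 7.25 CPM against 2.64, 8.76 and 8.73, with 6, 6 and 5 at 0. The 4 endothelial markers summed to 1.67, 2.23 and 0.764 against 1.34, 1.39 and 1.19. The 6 ciliated cell markers summed to 55.8 CPM in DMSO against 31.9, led by CAPS (30.9 against 17.0) and RSPH1 (20.9 against 12.7) with FOXJ1 at 0, and to 11.8 and 21.4 against 12 and 13.3 in RAC1i and Combo. Of the line's epithelial markers, EPCAM had ratios of 0.990, 0.897 and 0.950, and KRT8 1.30, 1.12 and 1.18. Both epithelial markers thus lay within 2-fold of comparison cells in every library. The 17 keratin and epithelial junction genes summed to 5798, 2825 and 3554 CPM in DMSO, RAC1i and Combo, against 4800, 2698 and 2987 in comparison cells.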

How the data were processed

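Single-cell RNA was measured with a droplet 3′ kit in 3 OVCAR3 libraries, DMSO, RAC1i and Combo, 1 for each condition. The values deposited by the authors are raw UMI counts per gene and barcode over 36601 genes, made with Cell Ranger 4.0.0 on GRCh38 per the submitters' processing notes, and held 207349619, 254860917 and 240453917 UMIs in DMSO, RAC1i and Combo. An EZH2i library was not analysed here. Kept cells had over 1000 genes, at most 20% mitochondrial UMIs and log10 genes over log10 UMIs above 0.8. These limits are those of the study's methods, which name a complexity score without giving its formula. No doublet caller was run and no doublet was removed.

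UMIs were summed over the cells of a group and given as CPM. Counts of genes and list medians used a floor of 3 UMIs, ratios with an interval used the counts as they stood, and genes needed 10 CPM in the higher group. Intervals are exact Poisson (CPM), exact conditional (ratios) and Clopper-Pearson (shares) at 95%, and they cover counting error only, since cells of 1 culture and UMIs of 1 cell are not independent. With 1 library a condition no test was made. Cells were thinned to 15000 UMIs with 1 fixed seed, and the scripts were tested on simulated data. Values per cell after thinning keep the members found on unthinned counts. Thinned shares and the thinning setting apply the rule again to the thinned counts, which takes in more cells.

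The rule's members and the gene lists were chosen with earlier results of these data known. Genes were named by rule: the 12 most higher and 12 most lower in all 3 libraries (at 50 CPM), the 8 most different of each treatment over DMSO and 5 of Combo over RAC1i, the 5 in each direction that differed most between both groups of cells, and members of the lists. Alternatives were limits of 10000 and 20000 UMIs, thinning, a mitochondrial limit of 10%, no cell over 60000 UMIs, TMM (edgeR 4.0.16), DESeq2 1.42.0 size factors, totals without mitochondrial genes, means over cells, depth-weighted comparison cells, comparison cells with 4 or more genes, and other CPM minimums. Leaving out the cell with most UMIs of a gene, leaving CCNA2 out of the G1 list, leaving S phase genes out of the licensing list, weighting shares by depth, and taking cell cycle medians over genes at 10 CPM in comparison cells were added after the data were seen. The cell with most UMIs was left out of the cells without the 5 transcripts and not of comparison cells. Code was run in Python 3.11.15 (numpy 2.4.6, scipy 1.17.1, pandas 2.3.3) and R 4.3.3. Start regions are from RefSeq on GRCh38.p14.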

Additional observations from a re-analysis of the deposited data

Results flagged for a closer look

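Several gene lists lay on opposite sides of comparison cells in DMSO and in a treated library, by more than 0.1 on the log2 scale on each side. None of these differences was tested, since each condition is 1 library. The median over all genes was −0.10 under DMSO and −0.12 under RAC1i and under Combo. The CDK inhibitor value of DMSO and the stem and secretory and mitochondrial genome values of RAC1i thus lay at about the level of all genes. Each median is over the genes at 10 CPM in that library, so the gene sets can differ between libraries. CDK inhibitors had a median of −0.11 under DMSO, 0.24 under RAC1i and 0.15 under Combo, over 4 to 6 genes. Over the settings tried these ran from −0.29 to 0.04, 0.07 to 0.36 and 0.03 to 0.33. With the top cell of each gene left out they stood at −0.17, 0.21 and 0.06. Senescence-associated genes had −0.19 under DMSO, 0.24 under RAC1i and 0.15 under Combo, with ranges of −0.05 to 0.35 and −0.04 to 0.26 in the treated libraries. With the top cell of each gene left out they stood at −0.09 in RAC1i and −0.22 in Combo, on the same side as DMSO. ID and HES repressors had −0.22 under DMSO, 0.32 under RAC1i and 0.40 under Combo, and all 6 such genes at 10 CPM were higher in Combo, while the DMSO value ran from −0.40 to 0.10. Chemokines and cytokines had −0.26 under DMSO, 0.56 under RAC1i and 0.62 under Combo, with CXCL8 above comparison cells through 1 cell in each treated library, and the list kept its sign in all 3 libraries over the settings tried. Stem and secretory genes had 0.16 in DMSO (−0.02 to 0.31) and −0.11 in RAC1i (−0.11 to 0.09). Transcripts of the mitochondrial genome had 0.28 in DMSO and −0.14 in RAC1i (−0.34 to 0.03).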

How the results depend on the processing

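Over all settings the G2/M and S phase medians of cells without the 5 transcripts stayed below comparison cells in all 3 libraries. Of 258 values recomputed for the main results 197 stayed within their interval, or within 1.5 times the count, and 61 moved. For those the cause was not tested, apart from the fewer or more genes that another CPM minimum takes in. With a limit of 10000 UMIs the shares were 3.08% in DMSO, 3.66% in RAC1i and 3.36% in Combo, and the log2 share ratios over DMSO were 0.25 for RAC1i and 0.12 for Combo. There the genes over 2-fold higher than comparison cells were 11 in DMSO and 9 in RAC1i, those of Combo over RAC1i were 42 higher and 29 lower, and the mitochondrial genome median in RAC1i was 0.033. With 20000 UMIs the shares were 1.33% in RAC1i and 1.26% in Combo, the log2 share ratios −0.76 and −0.84, the higher genes 31 in RAC1i and 77 in Combo, and those of Combo over RAC1i 287 higher and 202 lower. MT2A over comparison cells then stood at −0.24 in RAC1i and CDKN2A at −0.056 in Combo. After thinning the shares were 6.12%, 6.34% and 5.70%, and RAC1i had 1 higher and 51 lower genes, Combo 2 and 56, and Combo over RAC1i 24 and 12. The Combo medians were then −1.03 for G2/M and −0.66 for S phase genes, nuclear respiratory genes stood at −0.024 and CXCL1 at 0.038 in DMSO, and MUC1 at 0.042 in RAC1i. With TMM 4 genes in DMSO and 23 in RAC1i were higher, RAC1i over DMSO had 2348 higher and 1431 lower genes, and Combo over DMSO 2000 and 1070. In DMSO, TMM gave −0.081 for ribosomal proteins, −0.12 for nuclear respiratory genes, −0.0075 for PAX8 and −0.047 for CDH6, and over DMSO it gave 0.014 for HIST1H1C and 0.28 for S100A6 in RAC1i and 0.23 for HIST1H1C in Combo. DESeq2 size factors gave 32 higher genes in RAC1i, 0.0029 for EMX2 in DMSO, and over DMSO 0.10 for S100A6 in RAC1i and 0.0032 for HIST1H1C in Combo. Comparison cells weighted to the same depths gave 8 higher genes in RAC1i and 18 in Combo, with CDKN2A at −0.039 and MT2A at −0.075 in Combo. With no CPM minimum the higher and lower genes were 529 and 760 in DMSO, 618 and 475 in RAC1i and 638 and 466 in Combo, 2563 and 4240 for RAC1i over DMSO, 2123 and 3422 for Combo over DMSO and 659 and 511 for Combo over RAC1i. With 50 CPM they were 2 and 93, 2 and 24, 2 and 38, 688 and 679, 503 and 535, and 8 and 11 in the same order. Without its top cell, a setting chosen after the data were seen, CXCL8 stood at −0.60 in RAC1i and −0.45 in Combo, where comparison cells stayed whole. No paired analysis was possible because each condition is 1 library, so the groups share fewer than 2 replicate numbers. Depth limits the set itself, since a 0 in a shallow cell does not show that the gene was off.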

Other observations

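A few genes stood over 2-fold above comparison cells in some libraries, and they are given as values that were picked after they were seen. In DMSO TMC4, a transmembrane channel-like protein, stood at 109 CPM against 50.0 and NUPR1, a stress-response regulator, at 43.2 against 18.4. PTX3, a secreted pattern recognition protein, stood at 33.8 against 13.7 CPM in RAC1i and 49.3 against 12.4 in Combo, where 1 cell held 45.7% of its UMIs. SIPA1, a GTPase-activating protein for RAP1, stood at 18.3 against 5.23 CPM in Combo. Without the cell with most UMIs of the gene, 10 of the 17 higher genes of DMSO, 5 of 15 of RAC1i and 14 of 31 of Combo were still over 2-fold higher. Comparison cells stayed whole in this step, which favours lower counts. In 0 of the 17, 1 of the 15 and 4 of the 31 genes, 1 cell held over 50% of the UMIs.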
